A study of Homo sapiens with 15 samples.

Results

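The AP-1 and immediate early genes FOSL1, FOSL2, FOS, FOSB, JUN, JUNB, JUND, ATF3 and EGR1 were read by every array probe that carries one of these 9 gene names, which gave 15 of the 41000 probes of the array. The set was selected on measured values, because a FOSL1 probe had a high ratio on the miR-574-3p arrays. Therefore, all values of the miR-574-3p arrays are given as a description, and tests were run on the arrays of the 4 other miRNAs.

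AP-1 is a transcription factor made of pairs of proteins with a basic region and a leucine zipper. FOS family proteins (FOS, FOSB, FOSL1 and FOSL2) bind DNA only together with a partner such as a JUN protein, whereas JUN proteins can also pair with each other, and ATF3 pairs with members of both groups. Many of these genes, and the zinc finger gene EGR1, are immediate early genes, which are transcribed within minutes of a growth factor or stress signal through kinases of the ERK, JNK and p38 pathways. In lung adenocarcinoma cells, AP-1 is known for its part in the response to growth factor signals, and FOSL1 is a known target of ERK.

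The data are 15 dual-color whole-genome oligonucleotide arrays of A549, an established human lung adenocarcinoma cell line. Each array set cells over-expressing a miRNA (Cy5) against cells in which the same miRNA was suppressed by an antagomir, an antisense oligonucleotide with locked nucleic acids (Cy3). The oligonucleotides were used at 20 nM, RNA was taken 24 h after transfection, and 3 arrays were made for each of 5 miRNAs (miR-574-3p, miR-766, miR-565, miR-181d and miR-629*). No array had the dyes exchanged and none held untransfected cells, so that dye and treatment cannot be told apart within a miRNA. A ratio also does not say which of the cell populations moved, and the channels are therefore given beside it. The labels do not say whether replicates were separate transfections, and p-values thus measure the spread between these arrays, which may be technical.

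Replicate 1 of miR-565 stood apart from the others. The SD of its log2 ratio over all tested probes was 0.942, against 0.29 to 0.532 on the other 14 arrays, and all 15 AP-1 and immediate early probes were positive on it, against 6 to 11 elsewhere. The shift was not confined to these genes. The median log2 ratio of all tested probes was 0.138 on it, against -0.002 to 0.047 elsewhere. A ratio above 0.3 was seen for 39.9% of tested probes, against 9.36% to 18.9% elsewhere. Results are therefore given with and without this array. All 11 A549 and epithelial marker genes were well above background (a mark set by the scanner software) in both channels of every array. CDKN2A and MTAP, which lie in a region known to be deleted in A549, were also well above background on every array, at signals of 160 to 555. The mark alone therefore does not show that a transcript was present. All signals of FOSB, EGR1, FOSL1 A_23_P322519 and ATF3 A_24_P33895 lay under this range. Those of FOSL1 A_23_P161624 were 42.1 to 203. Of 12 genes of other cell types, 5 were well above background on no array (among them PTPRC and PECAM1) and 4 on all of them.

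The mature miRNAs are shown because their seeds decide which transcripts they can pair with. They are RefSeq sequences, 5′ to 3′, with the seed (bases 2 to 8) in capitals, and the entries matched by name were miR-574-3p (GRCh38.p14, chr4:38868092-38868113, plus strand), miR-629* (listed as miR-629-3p, chr15:70079387-70079408, minus strand) and miR-181d (chr19:13874910-13874932, plus strand). miR-565 and miR-766 are named only.
miR-574-3p: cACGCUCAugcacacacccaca
miR-629*: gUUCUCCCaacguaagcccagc
miR-181d: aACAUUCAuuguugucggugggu
No seed was shared among the 3.

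FOSL1 encodes Fra-1, a FOS family protein without the strong activating part of FOS. It was read by 2 probes 608 bases apart on chromosome 11 (NCBI36, chr11:65416674-65416733 and chr11:65417282-65417341, minus strand). The second probe is shown, in lower case throughout, because it had the higher ratio on the miR-574-3p arrays.
FOSL1, A_23_P322519: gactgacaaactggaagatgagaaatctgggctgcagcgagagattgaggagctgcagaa
The brighter probe, A_23_P161624, had log2 ratios of 1.15, 0.98 and 1.06 on the 3 miR-574-3p arrays, a mean of 1.06 ± 0.085 (SD, n = 3). The second probe had log2 ratios of 1.83, 1.67 and 2.67. Both probes were thus higher in over-expressing than in suppressed cells on all 3 arrays.

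The channels show where these ratios came from. For the brighter probe, the processed signal of the suppressed cells was 42.1, 51.4 and 49.4 on the miR-574-3p arrays, and 65.7 to 131 (median 98.1) on the 12 arrays of the other miRNAs, so that the groups did not overlap. The signal of the over-expressing cells was 93.3, 101 and 103, inside the 70.6 to 203 (median 100.2) of the other arrays. After quantile normalization within each dye, the log2 signal of the miR-574-3p arrays was lower by a mean difference of -1.04 in the suppressed channel and of -0.15 in the over-expressing channel. The second probe gave the same picture, with suppressed signals of 7.29, 8.50 and 3.68 against 14.8 to 38.7 elsewhere, and over-expressing signals of 23.4 to 27.1 against 21.5 to 50.2.

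**Figure D1:**
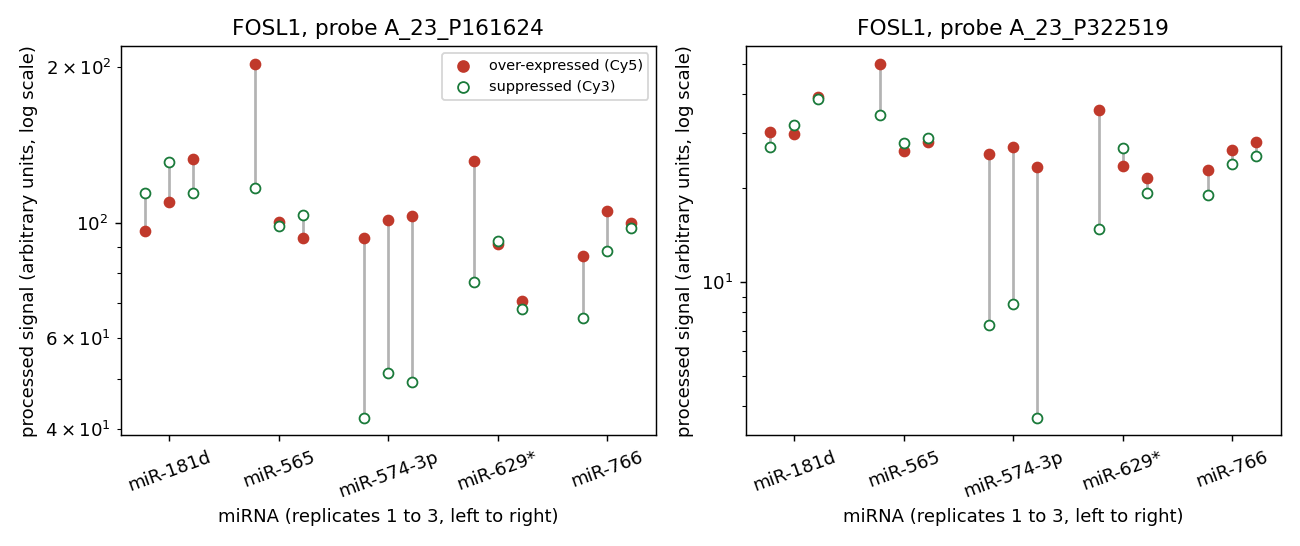
Processed signals (arbitrary units, log axis) of the 2 FOSL1 probes on each array, with the over-expressing cells (Cy5) as filled and the suppressed cells (Cy3) as open circles joined by a line per array. On the 3 miR-574-3p arrays the open circles lie below those of all 12 other arrays, while the filled circles lie among the others.

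The suppressed signal of the second FOSL1 probe was not well above background on any miR-574-3p array, so that only a bound can be given. The bound sets the mean of the bright channel against the mean, per array, of the higher of the dim signal and the lowest signal among probes well above background, on the log2 scale after scaling of the average signal between arrays. By this measure, the signal of this second probe, A_23_P322519, was at least 3.08-fold higher in the over-expressing cells. Such bounds are open to dye bias, as no array had its dyes exchanged. How common such a pattern was is described on signals quantile normalized within the dye. On this scale, the suppressed channel of the miR-574-3p arrays lay below all 12 other arrays for 2.65% of 31288 probes. It did so for both FOSL1 probes and for JUNB A_24_P241815. It lay above all 12 for 3.58% of the probes, among them 1 FOSL2 probe and the JUND probe. In processed signals, JUNB A_24_P241815 (141 to 162 against 148 to 235) and JUND (5034 to 5836 against 3309 to 6789) overlapped the other arrays.

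Arrays of different miRNAs that shared a slide are given as a description. On slide 2, the brighter probe had a mean log2 ratio of 1.06 on 2 miR-574-3p arrays and of -0.06 on 2 miR-565 arrays. On slide 3 it was 1.06 on the third miR-574-3p array and 0.27 on the 3 miR-629* arrays.

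Outside miR-574-3p, the brighter FOSL1 probe had log2 ratios of -0.24, -0.26 and 0.21 for miR-181d, of 0.80, 0.02 and -0.15 for miR-565, of 0.77, -0.02 and 0.05 for miR-629*, and of 0.40, 0.26 and 0.04 for miR-766. No mean passed the test (limma, lowest adjusted p = 0.366). Replicate 1 of miR-629* was high for both FOSL1 probes, at 0.77 and 1.27, whereas its other replicates lay between -0.19 and 0.16. The ratio of the probe did not pass the test of a difference among the 4 miRNAs (limma moderated F, adjusted p = 0.742). Its suppressed channel did (adjusted p = 0.0229), as described with the other channel results.

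FOSL2 encodes Fra-2, the nearest relative of Fra-1. It was read by 4 probes between chr2:28488651 and chr2:28492670 (NCBI36, plus strand). A_23_P343671, the most downstream of them and assigned to a transcript record of its own, had log2 ratios of -0.56, -0.58 and -0.43 on the miR-574-3p arrays. The other 3 probes had ratios of -0.17 to -0.01 there. In the suppressed channel, A_23_P343671 read 1489, 1670 and 1507 on the miR-574-3p arrays against 871 to 1454 elsewhere, while the over-expressing channel overlapped (1013 to 1120 against 769 to 1723). The most upstream probe, A_23_P345581, is printed because it carries the FOSL2 result without replicate 1 of miR-565 given below.
FOSL2, A_23_P345581: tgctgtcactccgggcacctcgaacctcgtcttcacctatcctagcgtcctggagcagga
Over the 15 arrays, pairs of FOSL2 probes correlated at r = 0.40 to 0.96, and without replicate 1 of miR-565 at r = -0.28 to 0.55, as a description over arrays that share slides and labelling.

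**Figure D2:**
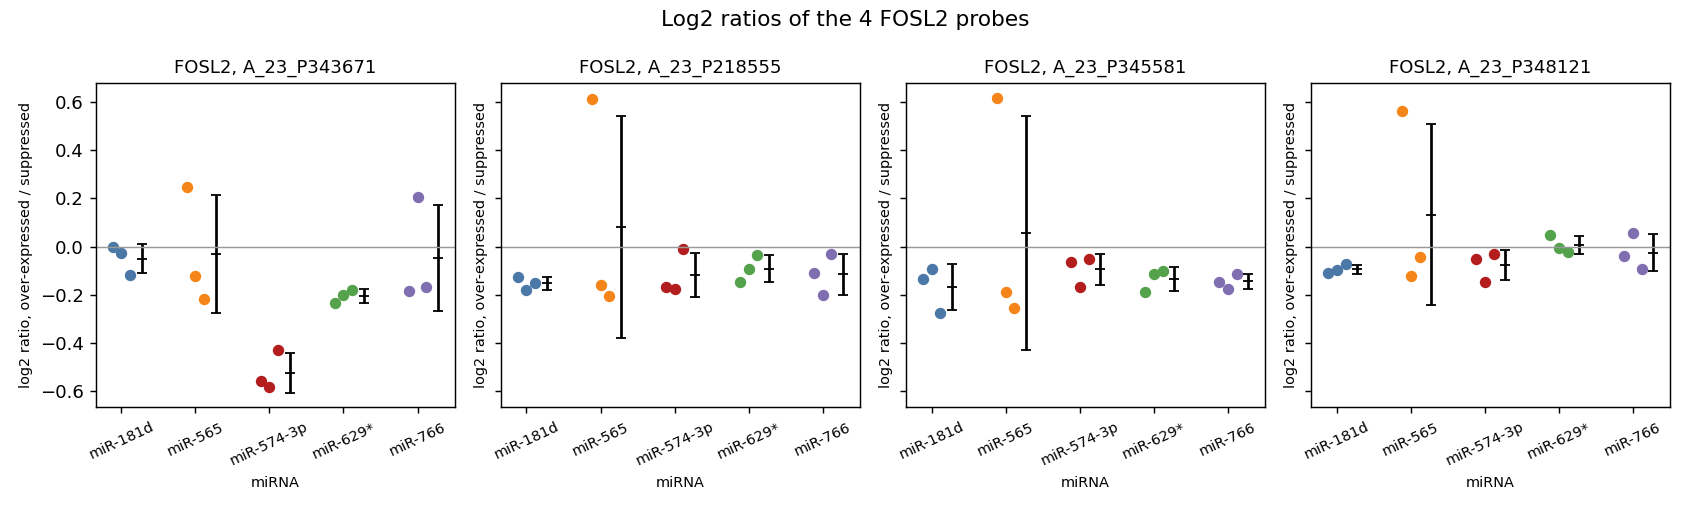
Log2 ratio (over-expressing over suppressed) of the 4 FOSL2 probes, with a point per array and the mean ± SD of the 3 arrays of a miRNA beside it. A_23_P343671 lies at -0.58 to -0.43 on the miR-574-3p arrays, the other probes lie near 0 there, and replicate 1 of miR-565 lies above the rest in all 4 panels.

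For the 4 other miRNAs, no FOSL2 probe passed the test with all arrays and the deposited processed signals. With normexp background correction and loess in their place, A_23_P343671 (mean log2 ratio of the 4 miRNAs -0.12, limma adjusted p = 0.0199) and A_23_P345581 (-0.11, adjusted p = 0.0361) were lower in over-expressing cells. On replicate 1 of miR-565, the 4 probes had log2 ratios of 0.25 to 0.61. Without that array, 3 of the 4 FOSL2 probes were lower in over-expressing cells in the mean of the 4 miRNAs, by small amounts. A_23_P345581 then had a mean log2 ratio of -0.17 (limma, standard error 0.022, adjusted p = 0.000113), and 54.3% of all tested probes passed this test in either direction.

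FOS, the founding member of the family, had log2 ratios between -0.28 and 0.67 over the 15 arrays. Its ratios on the miR-574-3p arrays were -0.09, -0.04 and 0.06. The highest value, 0.67, was that of replicate 1 of miR-565, and the remaining 14 arrays lay between -0.28 and 0.30. No test of FOS passed (mean of the 4 other miRNAs 0.07, limma adjusted p = 0.382).

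FOSB encodes a FOS protein that also occurs in a shorter, long-lived form. Its probe was dim, with signals of 2.06 to 14.9, and was well above background on 14 arrays in the over-expressing channel and on 8 in the suppressed channel. The log2 ratios were -0.37, -0.37 and -0.62 on the miR-574-3p arrays. They were 0.10, 1.48 and 0.23 for miR-181d, 0.88, 0.61 and 1.74 for miR-565, 0.37, 0.23 and 0.19 for miR-629*, and 0.17, 1.36 and 0.46 for miR-766. FOSB was thus lower in over-expressing cells on the 3 miR-574-3p arrays and higher on the 12 others. The share of all tested probes with such a split is not given, so that it cannot be called unusual. In the suppressed cells the signal was 11.2, 11.2 and 13.8 for miR-574-3p and 2.06 to 11.5 elsewhere, with an overlap at replicate 1 of miR-629*. For miR-565, where the suppressed signal was not well above background on any array, FOSB was at least 1.33-fold higher in over-expressing cells (limma adjusted p = 0.0334 for the measured ratio). No fold is given for miR-181d, where the bound falls under 1.

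JUN, JUNB and JUND are the partners of the FOS proteins. JUN was printed in 10 spots per array, whose log2 ratios had an SD of 0.0103 to 0.0289 within an array. Its log2 ratios were 0.08, 0.14 and 0.07 on the miR-574-3p arrays. The lowest value, -0.58, was on replicate 1 of miR-181d, where the other replicates had -0.18 and 0.20. No test of JUN passed (mean of the 4 other miRNAs 0.01, limma adjusted p = 0.905).

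JUNB had 2 probes 1049 bases apart that differed in direction. The bright probe A_23_P4821 (signals 3423 to 9169) was positive on all 15 arrays, at 0.16, 0.23 and 0.18 for miR-574-3p and 0.01 to 0.54 elsewhere. The dimmer probe A_24_P241815 (signals 141 to 364) was positive on 5 arrays, which were the 3 miR-574-3p arrays (0.06, 0.06 and 0.21), replicate 1 of miR-565 (0.78) and replicate 3 of miR-629* (0.06). Over the 15 arrays the probes correlated at r = 0.65, and at r = -0.02 without replicate 1 of miR-565. The sequence of the dimmer probe is shown because its sign varied between arrays, and why the probes differ was not tested.
JUNB, A_24_P241815: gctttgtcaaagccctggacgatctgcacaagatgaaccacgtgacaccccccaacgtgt
Without replicate 1 of miR-565, the probes moved in opposite directions in the mean of the 4 other miRNAs. In that fit, 54.3% of all tested probes passed the test of this mean in either direction. The bright probe then had a mean log2 ratio of 0.16 (limma, standard error 0.022, adjusted p = 0.000152) and the dimmer probe of -0.21 (standard error 0.034, adjusted p = 0.000499). A direction for JUNB as a gene is therefore not given.

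JUND, which is expressed more steadily than its relatives, was positive on 14 of 15 arrays, with signals of 3309 to 10161. Its log2 ratios were 0.31, 0.11 and 0.30 for miR-574-3p. For miR-565 they were 0.58, 0.32 and 0.31, the only miRNA of the 4 others at which JUND passed the test alone (mean 0.40, limma standard error 0.086, adjusted p = 0.019).

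ATF3 encodes a stress-induced partner and repressor in the same family. Its bright probe, A_23_P34915, was positive on all 15 arrays. The log2 ratios were 0.38, 0.28 and 0.41 for miR-181d, 0.88, 0.37 and 0.43 for miR-565, 0.36, 0.43 and 0.35 for miR-574-3p, 0.48, 0.37 and 0.56 for miR-629*, and 0.28, 0.28 and 0.15 for miR-766. Every miR-565, miR-574-3p and miR-629* array lay above every miR-766 array, the other ranges overlapped, and replicate 1 of miR-565 was the highest. A second ATF3 probe, 1019 bases away and much dimmer (signals 7.62 to 34.3), was positive on 11 arrays, between -0.11 and 1.23.
ATF3, A_24_P33895: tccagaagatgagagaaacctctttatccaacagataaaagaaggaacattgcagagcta
It is printed because its values scatter more than those of the bright probe, with an SD of 0.537 against 0.0971 for miR-629*.

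EGR1, a zinc finger transcription factor that is an early target of ERK and serum response factor, was positive on 14 of 15 arrays. Its probe was dim, with signals of 19.4 to 80.8 in over-expressing and 10.6 to 29.9 in suppressed cells. The log2 ratios were 1.02, 0.78 and 0.61 for miR-574-3p. They were 0.57, 0.03 and 1.08 for miR-181d, 1.43, 0.71 and 0.78 for miR-565, 1.25, 0.48 and 1.11 for miR-629*, and 0.28, 0.35 and -0.22 for miR-766. The miR-766 arrays were thus the lowest together with replicate 2 of miR-181d.

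**Figure D3:**
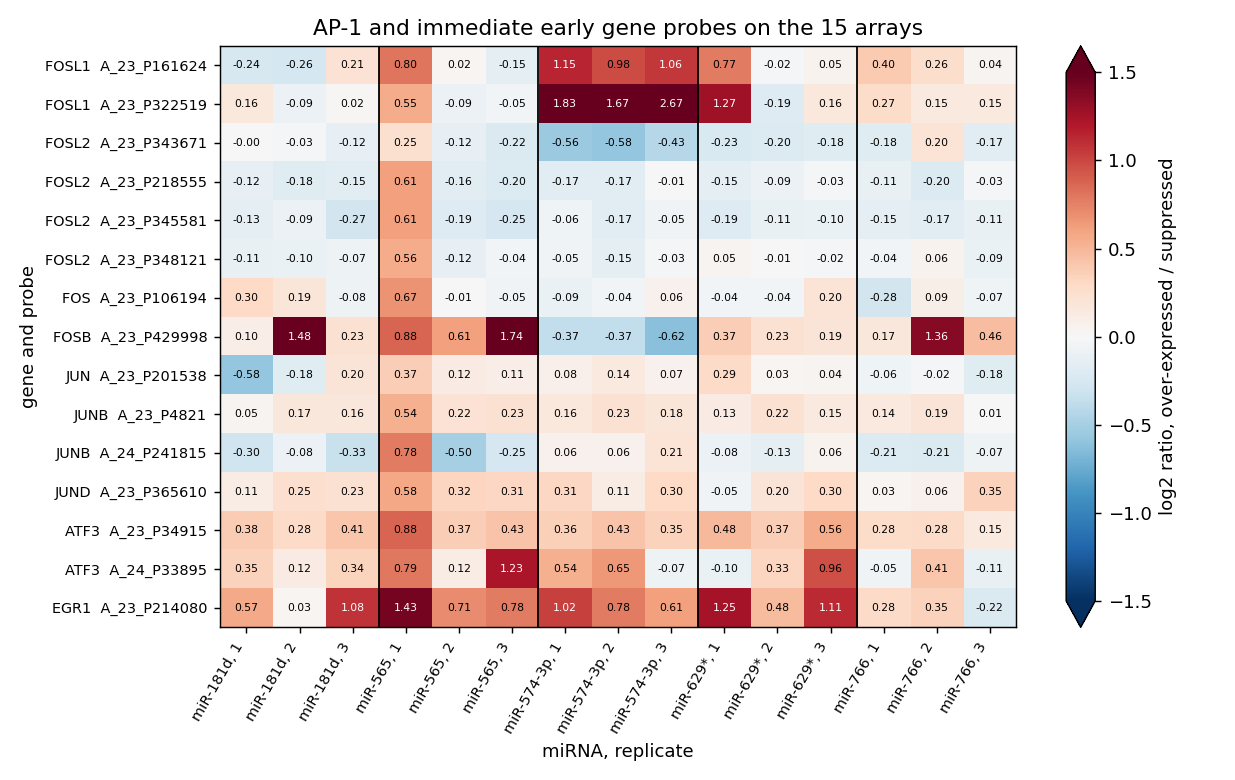
Log2 ratio (over-expressing over suppressed, printed and colored, colors ending at -1.5 and 1.5) of the 15 probes on the 15 arrays, grouped by miRNA. The FOSL1 probes are high and FOSB low on the miR-574-3p arrays, ATF3 A_23_P34915 and JUNB A_23_P4821 are positive in every column, and all 15 probes are positive on replicate 1 of miR-565.

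To ask whether over-expression and suppression of a miRNA differed for these genes outside miR-574-3p, the ratios were tested against 0 in limma. For miR-181d, 1 of the 15 probes passed (ATF3 A_23_P34915, mean log2 ratio 0.36, standard error 0.085, adjusted p = 0.0387), where 2.76% of all tested probes rose in over-expressing cells. This call was lost with the replicate number as a block (adjusted p = 0.0522), with the slide as a random block (log2 ratio 0.13, adjusted p = 0.564), with the 3 miR-181d arrays alone (adjusted p = 0.143) and without any 1 of 11 arrays. For miR-565, 5 probes rose, against 7.96% of all probes, namely ATF3 A_23_P34915 (0.56, adjusted p = 0.00536), EGR1 (0.97, adjusted p = 0.019), FOSB, JUNB A_23_P4821 (0.33, adjusted p = 0.0159) and JUND. Without replicate 1, EGR1 had 0.74 and no longer passed (adjusted p = 0.0611), while the other 4 did.

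For miR-629*, 2 probes rose, against 5.7% of all probes. These were ATF3 A_23_P34915 (0.47, standard error 0.085, adjusted p = 0.0112) and EGR1 (0.95, standard error 0.21, adjusted p = 0.0207). Neither passed without replicate 1 or without replicate 3 of miR-629*, where the count was 0. With the slide as a random block, or with only the 3 arrays of a miRNA, the counts were also 0 for miR-565 and for miR-629*. For miR-766, limma called none of the 15, against 0.928% of all probes that rose, 2 had an unadjusted p under 0.05, and averaging the deposited log ratios with weights from their errors also called 0.

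The standard errors were smaller in the fit without replicate 1 of miR-565 (0.0465 against 0.0851 for ATF3 A_23_P34915 in miR-181d). Without that array, 5 of the 15 probes passed in either direction for miR-181d, 7 for miR-565, 5 for miR-629* and 2 for miR-766, while 26.2%, 13.6%, 33.3% and 16.5% of all tested probes did. ATF3 A_23_P34915 and FOSL2 A_23_P345581 were the 2 for miR-766, with mean log2 ratios of 0.24 (adjusted p = 0.00797) and -0.14 (adjusted p = 0.0378).

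In the mean of the 4 other miRNAs, 6 of the 15 probes rose and none fell, where 21.7% of all tested probes rose and 16.3% fell. The median log2 ratio of the 15 probes was 0.16, beside 0.01 over all tested probes. Without replicate 1 of miR-565 these medians were 0.085 and 0.02. ATF3 A_23_P34915 had a mean log2 ratio of 0.41 (limma, standard error 0.043, adjusted p = 5.5e-05) and was positive on 12 of 12 arrays. EGR1 had 0.65 (standard error 0.10, adjusted p = 0.000657), positive on 11 of 12. FOSB had 0.65 (standard error 0.14, adjusted p = 0.00342), positive on 12 of 12, although its suppressed signal was not well above background on 7 of them.

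The other 3 probes were smaller or less even. JUND had 0.23 (standard error 0.043, adjusted p = 0.00199), JUNB A_23_P4821 0.18 (standard error 0.033, adjusted p = 0.00137), and ATF3 A_24_P33895 0.36 (standard error 0.11, adjusted p = 0.0215). All 6 passed again without replicate 1 of miR-565, when 4 further probes (JUNB A_24_P241815 and 3 of FOSL2) passed with negative means. Of all tested probes, 30.2% rose and 24% fell in that fit. None of the 15 passed with the slide as a random block, where the estimated correlation within slides was 0.73 (adjusted p = 0.179 for ATF3 A_23_P34915 and 0.462 for EGR1). As the dye of the over-expressing cells was the same on every array, a dye effect on these probes cannot be told apart from the treatment.

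**Figure D4:**
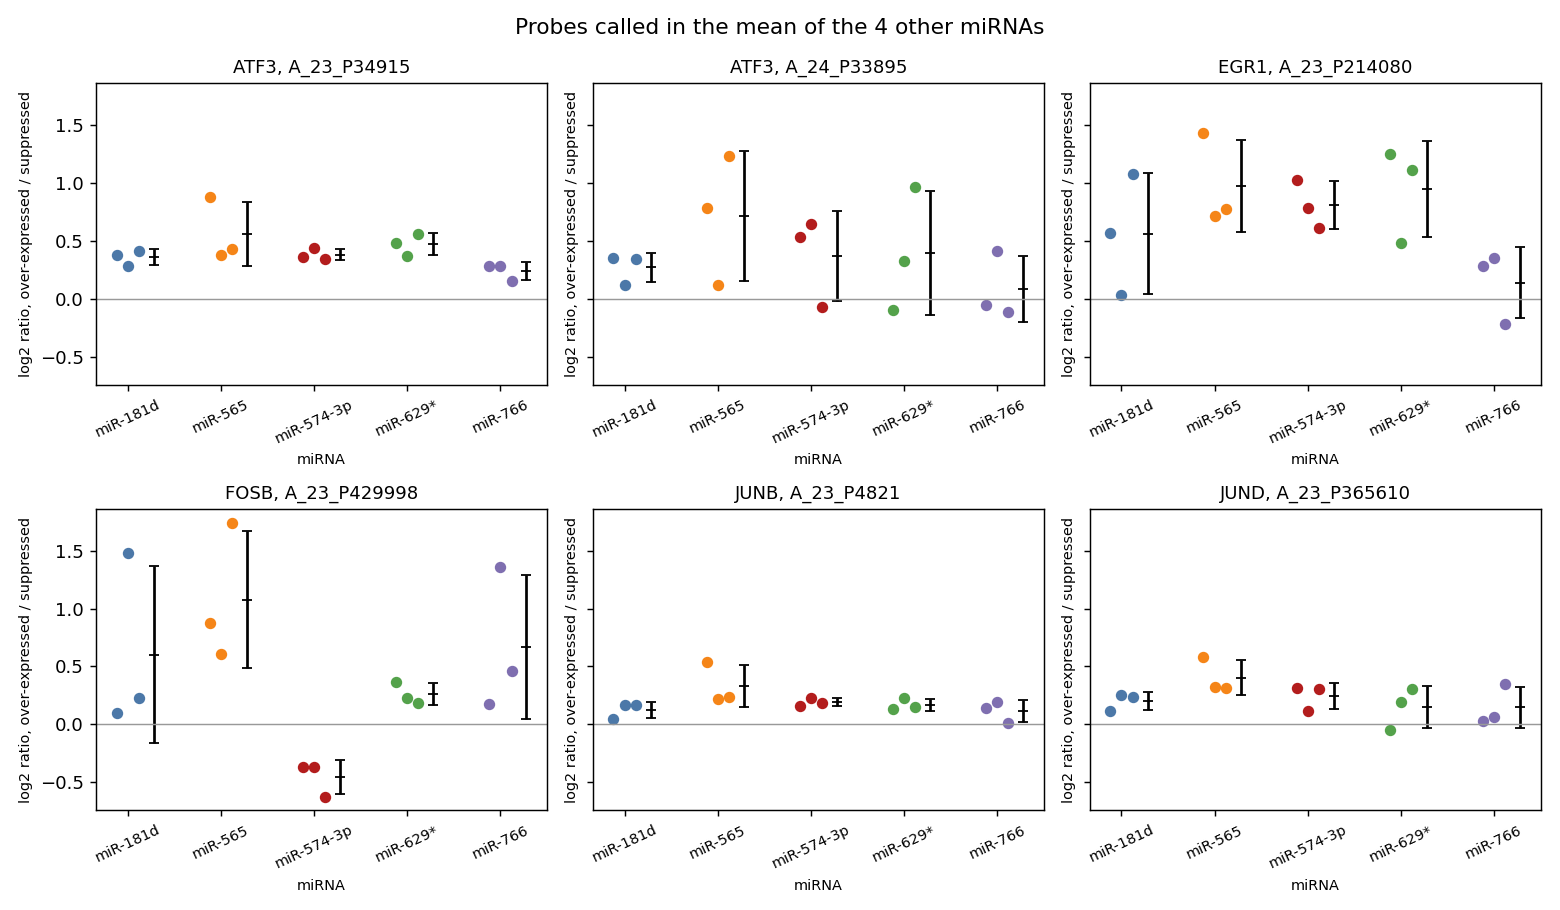
Log2 ratio (over-expressing over suppressed) of the 6 probes that rose in the mean of the 4 other miRNAs, with a point per array and the mean ± SD of the 3 arrays of a miRNA beside it; miR-574-3p is drawn for description and was not in that mean. ATF3 A_23_P34915 and JUNB A_23_P4821 lie above 0 on all 15 arrays, and FOSB lies below 0 on the miR-574-3p arrays alone.

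The 4 miRNAs were then compared with each other, so that a dye effect shared by all of them drops out. None of the 15 probes had a log2 ratio that differed among them (limma moderated F), 1 had an unadjusted p under 0.05 (EGR1), and 0.0829% of all tested probes were called. The over-expressing channel gave none either, with 4 at an unadjusted p under 0.05 and 0.0893% of all probes called.

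In the suppressed channel, 2 of the 15 probes differed, against 5% of all tested probes. For FOSL1 A_23_P161624 (adjusted p = 0.0229), the quantile-normalized log2 signal was 6.84 for miR-181d, 6.72 for miR-565, 6.45 for miR-629* and 6.31 for miR-766. The value of miR-766 differed from the mean of the 3 others by -0.36 (standard error 0.087, adjusted p = 0.0279). In this order, miR-181d overlapped miR-565 and miR-629* overlapped miR-766, whereas every miR-565 array lay above every miR-629* array. For EGR1 (adjusted p = 0.0306), the order was miR-565 (4.66), miR-766 (4.47), miR-181d (4.23) and miR-629* (3.94), and no single miRNA passed against the 3 others (lowest adjusted p = 0.0578). The arrays of miR-766 lay alone on slide 4, so that slide and miRNA cannot be told apart there. All miR-181d arrays lay on slide 1, the miR-565 arrays on slides 1 and 2, and all miR-629* arrays on slide 3. Of the 4 miRNAs, only miR-181d and miR-565 shared a slide. For the other pairs, among them miR-565 and miR-629*, slide and miRNA cannot be told apart either. The count of 2 became 0 without replicate 2 of miR-766, and 1 without any one of 6 other arrays (replicate 2 of miR-181d, replicates 1 and 3 of miR-565, replicates 1 and 3 of miR-629*, and replicate 3 of miR-766).

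**Figure D5:**
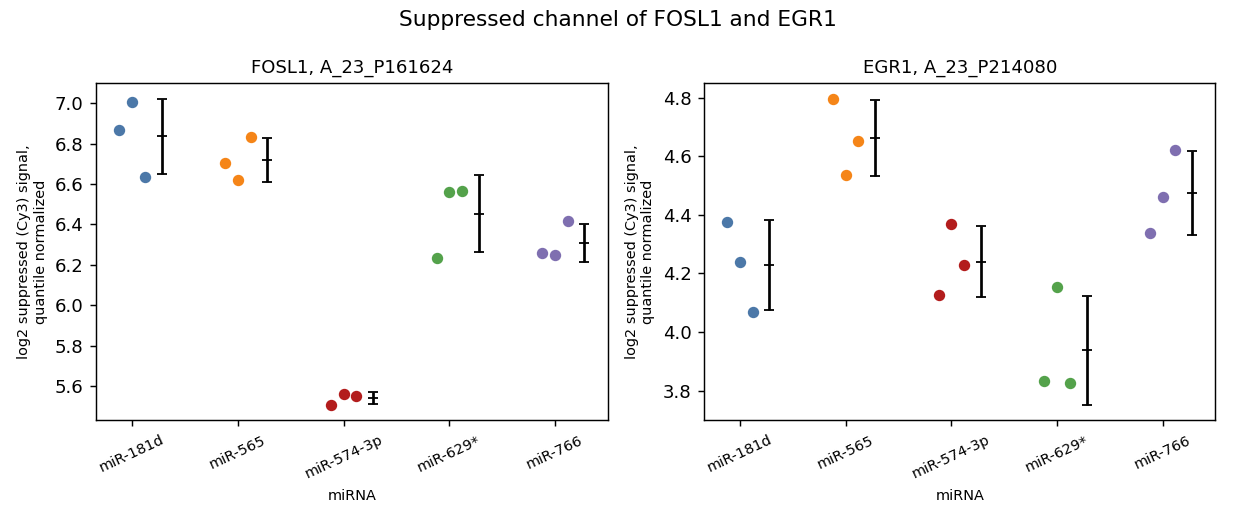
Quantile-normalized log2 signal of the suppressed cells (Cy3) for FOSL1 A_23_P161624 and EGR1, with a point per array and the mean ± SD of the 3 arrays of a miRNA beside it. FOSL1 lies at 5.51 to 5.56 on the miR-574-3p arrays, which were not in the test, and at 6.23 to 7.01 on the others.

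The genes around AP-1 were taken from 4 lists of 77 genes on the array in all, with 125 probes, 108 of which were tested. In the mean of the 4 other miRNAs, 27 of these rose and 16 fell (21.7% and 16.3% of all tested probes did), and the median log2 ratio was 0.03. Among the other AP-1 and bZIP partners, 5 of 15 probes rose and 2 fell. Of the other immediate early genes, 9 of 34 rose and 3 fell. The upstream kinases and ETS partners of serum response factor had 7 of 28 higher and 5 lower. The genes described as AP-1 targets had 6 of 31 higher and 6 lower. Without replicate 1 of miR-565, 8 of the bZIP partners rose and 3 fell, and 11 and 4 of the other immediate early genes did. The kinases and ETS partners then had 8 higher and 6 lower, and the AP-1 targets 7 and 7. Of all tested probes, 30.2% rose and 24% fell in that fit. None of the 108 probes had a ratio that differed among the 4 miRNAs (limma moderated F), and 6 had an unadjusted p under 0.05.

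By single miRNA, 4 related probes rose and 0 fell for miR-181d (2.76% of all probes rose and 1.63% fell), 8 rose and 2 fell for miR-565 (7.96% and 2.79%), 11 rose and 3 fell for miR-629* (5.7% and 3.19%), and 1 rose for miR-766 (0.928% rose). The last was MAPK8, the JNK kinase that phosphorylates JUN, with 1 of its 3 probes (mean log2 ratio 0.36, limma standard error 0.06, adjusted p = 0.0191). This MAPK8 probe rose for all 4 miRNAs. IL8, a chemokine gene with an AP-1 site, rose with 1 of its 2 probes for miR-181d (0.54, adjusted p = 0.0487), miR-565 (0.75, adjusted p = 0.0115) and miR-629* (1.18, adjusted p = 0.00273). The other probe was called for none of these. Its second probe had a log2 ratio of the opposite sign on the miR-574-3p arrays (-0.40, against 0.43 for the first). The 2 that fell for miR-565 were MAPK9 (-0.33, adjusted p = 0.0182) and IER2 (-0.22, adjusted p = 0.0351), and the 3 that fell for miR-629* were MAFK (-0.35, adjusted p = 0.0213), CCND1 (-0.30, adjusted p = 0.0298) and HMGA1 (-0.25, adjusted p = 0.0378). Without replicate 1 of miR-565, NR4A3 (limma adjusted p = 0.177), HBEGF (0.0603) and KLF10 (0.0886) no longer passed for miR-565, while its other called probes did. Per list, 3 to 7 probes then rose and 1 to 10 fell for miR-181d (14.6% and 11.6% of all tested probes). These counts were 4 to 8 and 1 to 4 for miR-629* (20% and 13.3%), and 2 to 5 and 1 to 3 for miR-766 (10.5% and 5.95%). For miR-565 they were 1 to 3 and 0 to 4 (7.83% and 5.73%). MAPK9, MAFK, CCND1, HMGA1, NR4A3 and KLF10 were named after their values were seen.

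On the miR-574-3p arrays, the related genes of largest mean ratio in each list are given as values. ATF2, a bZIP partner of JUN, had log2 ratios of 0.65, 0.62 and 0.70 with probe A_24_P128145, against -0.38 to 0.27 on the other 12 arrays. The suppressed channel of this probe did not overlap between the groups, by a mean log2 difference of -0.49. On the miR-574-3p arrays, this channel lay below all 12 other arrays for 2.65% of 31288 probes. The share of probes whose ratios did not overlap is not given. The other 2 ATF2 probes had means of 0.11 and 0.00. HBEGF, a ligand of the EGF receptor, had 0.47, 0.73 and 0.57 (-0.30 to 0.76 elsewhere), and its second probe had a mean of -0.04.

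The remaining genes overlapped the other arrays in both channels. The means were 0.43 for IL8, 0.41 for MAPK8, 0.35 for NR4A1, 0.27 for MAP2K4 and 0.26 for CREB5, and -0.45 for MMP9, -0.43 for ELK1, -0.38 for NAB2, -0.32 for MAF and -0.27 for IER2. The median log2 ratio was 0.10 for the AP-1 targets, 0.07 for the bZIP partners, 0.07 for the upstream kinases and ETS partners and 0.01 for the other immediate early genes, beside 0.01 over all tested probes.

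Over the 15 arrays, the probes whose ratio followed the brighter FOSL1 probe most closely among 21200 named probes were those of SLC35B4 (r = 0.94), CARS2 (r = 0.94), C22orf25 (r = 0.93), NPAS2 (r = 0.91) and TMEM138 (r = 0.91). The lowest correlations were those of PDE4B (r = -0.95), SLC27A2 (r = -0.94), PSME1 (r = -0.93), TGFBR2 (r = -0.91) and GPBP1L1 (r = -0.91). These are descriptions over 15 arrays that share slides and labelling. The 15 include the 3 miR-574-3p arrays, on which the set was selected and where the brighter FOSL1 probe was highest. These arrays therefore weigh on every correlation in this paragraph, and no r is given without them. Of the first 5, C22orf25 and NPAS2 had mean log2 ratios of 0.70 and 0.65 on the miR-574-3p arrays, while SLC35B4 and CARS2 were near 0 there. Among the AP-1 and immediate early probes, the second FOSL1 probe followed the brighter one at r = 0.89 (0.92 without replicate 1 of miR-565), and FOSB had r = -0.60 (-0.68 without that array). FOSL2 A_23_P343671 had r = -0.50, and r = -0.75 without that array.

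The promoters were read for motifs because immediate early genes are known for a small set of them. RefSeq windows from 250 bases before to 50 bases after the start (GRCh38.p14) were matched by symbol for 8 of the 9 genes, in 9 windows, and both strands were searched. The motifs were the AP-1 site TGACTCA, the CRE TGACGTCA, its variant TGACATCA, the TATA box TATAAA and the CArG box that serum response factor binds. They were present in 4.95%, 1.85%, 2.61%, 11.5% and 1.29% of 35116 promoters. Of the 8 genes, TATAAA was found in 4 (ATF3, FOS, FOSB and JUNB), TGACATCA in 2 (ATF3 and JUN), TGACGTCA in 1 (JUND), TGACTCA in 1 (FOSL2) and the CArG box in 1 (EGR1, with 2 copies). TATAAA began 30 to 33 bases before the start in FOS, FOSB and JUNB. In ATF3 it began 230 bases before, in a different window from the TGACATCA. The windows below are those of genes whose ratios are described above, 5′ to 3′ on the strand of the gene, with the motif in capitals.
EGR1, chr5:138465364-138465393: gccggtcctgCCATATTAGGgcttcctgct
EGR1, chr5:138465386-138465415: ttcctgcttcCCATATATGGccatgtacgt
JUN, chr1:58784096-58784125: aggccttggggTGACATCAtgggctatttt
ATF3, chr1:212565273-212565302: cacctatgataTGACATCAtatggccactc
JUND, chr19:18281804-18281833: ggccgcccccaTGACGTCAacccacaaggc
JUNB, chr19:12791443-12791472: tgactagcgcggTATAAAggcgtgtggctc
FOS, chr14:75278783-75278812: taaaacgcttgtTATAAAagcagtggctgc
JUN and JUND are on the minus strand and the others on the plus strand. The 2 CArG boxes of EGR1 begin 105 and 83 bases before its start. Of the genes with a probe that rose in the mean of the 4 other miRNAs, EGR1 held those boxes and ATF3 and JUND a CRE or its variant. FOSB and JUNB, which also had such a probe, held only TATAAA. JUN with the same TGACATCA as ATF3, FOS with TATAAA and FOSL2 with TGACTCA had no such probe. A relation between motifs and ratios was not tested. A match describes these letters only, and binding was not measured.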

How the data were processed

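The members and gene lists were chosen with earlier results of these data known. The authors deposited, for each of 15 arrays, the output of Agilent Feature Extraction 9.5.3.1: processed signal intensity values, which the software had corrected for background and normalized between dyes, and log10 ratios, which the deposited series table repeats. The error score of the deposited log ratio served as a weight in 1 alternative. Control spots (1639 per array) and 2296 outlier-flagged spots were left out, and spots of a probe were averaged. The log2 ratio of processed signals (Cy5 over Cy3) was fitted in limma 3.58.1 (R 4.3.3, lmFit, eBayes with an intensity trend) with 1 coefficient per miRNA. Tested probes had at least 3 arrays on which 1 or both channels were well above background, with Benjamini-Hochberg adjustment over all of them and calls at an adjusted p under 0.05. All 15 probes passed this filter. Channels were quantile normalized within the dye.

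Named genes were all members by every probe, per related list those with an F test adjusted p under 0.05 (none) and up to 3 with the largest absolute mean ratio on the miR-574-3p arrays among probes well above background in both channels there, and the 5 probes with the highest and the 5 with the lowest correlation to the brighter FOSL1 probe. Others were named after their values were seen. Signals well above background covered 68.1% to 75.4% of probes in the over-expressing and 68.8% to 72.9% in the suppressed channel, and the number of arrays limits the precision. On simulated log ratios for miR-629* with 31288 probes, 77% of probes changed by 1 log2 unit and 88% of those changed by 2 were recovered. The F test recovered 55% and 76% of them. The simulated noise was independent between arrays, whereas the estimated correlation within slides was 0.73 in the data, so that these shares may not hold for the data. Probe positions are those of the files (NCBI36). GRCh38.p14 tables gave names (9 of 9 genes matched), miRNAs and promoters. Alternatives were normexp (offset 50) with loess, median centring, the series table, an error-weighted mean, single-miRNA fits, no intensity trend, replicate and slide blocks, other filters, outlier spots kept and each array left out.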

Additional observations from a re-analysis of the deposited data

Results flagged for a closer look

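Some ratios had the opposite sign on all 3 miR-574-3p arrays and on all 3 arrays of another miRNA, and these differences were not tested. The share of all tested probes with such opposite signs is not given. FOSB was lower in over-expressing cells for miR-574-3p (mean log2 ratio -0.46) and higher for the others, with differences of -1.06 from miR-181d, -1.53 from miR-565, -0.72 from miR-629* and -1.12 from miR-766. These are differences of measured means and no folds, as its suppressed signal was not well above background on any miR-181d or miR-565 array and on 1 miR-766 array. JUNB A_24_P241815 was positive for miR-574-3p and negative for miR-181d (difference 0.35) and miR-766 (difference 0.28). JUN A_23_P201538 differed in the same way between miR-574-3p and miR-766 (difference 0.19). No group of 4 or more arrays was available to look for single outlying arrays.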

How the results depend on the processing

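With the slide as a random block, the count of changed AP-1 and immediate early probes was 0 for miR-181d, miR-565 and miR-629*. It was also 0 for the mean of the 4 other miRNAs. In that fit, 5 of these probes differed among the 4 miRNAs in ratio, 9 in the over-expressing and 7 in the suppressed channel. Of the related probes, 21 differed in ratio, as did 26.7% of all probes. The share of all tested probes is not given for either channel, so that the counts of 9 and 7 cannot be called unusual. A fit of only the 3 arrays of a miRNA gave 0 changed probes for miR-181d, miR-565 and miR-629*. For miR-181d an error-weighted mean gave 2 and the replicate block 0. The suppressed channel count was 1 without the filter on dim probes and 1 with normexp and loess, which also gave FOSL1 a log2 ratio of 0.60 on the miR-574-3p arrays. No probe called with all arrays changed sign under these alternatives or when an array was left out. Probes not called did: without replicate 1 of miR-565, the miR-565 means turned from 0.01 to -0.38 for JUNB A_24_P241815, from 0.06 to -0.22 for FOSL2 A_23_P345581, from 0.08 to -0.18 for FOSL2 A_23_P218555 (limma adjusted p = 0.0136, 0.0188 and 0.0435) and from 0.23 to -0.06 for FOSL1 A_23_P161624.

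Without single arrays, the counts ranged from 0 to 5 for miR-181d, 4 to 7 for miR-565, 0 to 5 for miR-629*, 0 to 2 for miR-766, 5 to 10 for the mean of the 4 and 0 to 2 for the suppressed channel, and FOSL1 on miR-574-3p from 1.02 to 1.10. The highest counts of the single miRNAs and of the mean were those without replicate 1 of miR-565. The call for miR-181d was lost without any 1 of 11 arrays.

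The replicate numbers were not shown to pair the arrays, as deviations of arrays with the same number correlated at -0.40 to 0.51 and 13 of 30 pairs were above 0.1. The replicate block kept 5 calls for miR-565, 2 for miR-629* and 6 for the mean, and 6 of 15 arrays correlated best with their own number. Normexp lowered the mean ratios of FOSB to 0.07, of ATF3 A_24_P33895 to 0.08 (no longer called) and of EGR1 to 0.20.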
